A study of Mus musculus with 21 samples.

Results

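The 10 genes described here encode the heat shock chaperones Hspa1a, Hspa1b, Hspa8, Hsph1, Dnajb1, Dnaja1, Hsp90aa1, Hsp90ab1, Hspe1 and Hspd1. They were taken by symbol from a table of 55414 mouse gene identifiers, and all 10 were among the 13070 genes with enough counts to be tested. Hspa1a was the lowest of them, with 0 to 63 counts per library. The samples were 21 bulk RNA-seq libraries of Paneth cells, the antimicrobial secretory cells of the small intestinal crypt, which had been sorted by FACS from C57BL/6J mice, each library coming from a single mouse. Mice drank Milli-Q water (MQ) or zinc sulfate water (Zn, 200 mM as the labels give it) for 7 weeks. The SPF mice carried a specific pathogen-free flora (3 MQ and 3 Zn libraries), the ABX mice were SPF animals that also received antibiotics during the final 3 weeks (4 MQ and 4 Zn), and the GF mice were germ-free (3 MQ and 4 Zn). These 3 settings are called contexts here. No agent or allele other than these was given in the labels, and the mice's age was not stated there. The question was whether zinc or the handling of the cells induced these genes and how far replicate libraries spread. All 21 libraries were sorted, so handling itself had no contrast.

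Heat shock factor 1 (Hsf1) is a transcription factor that is kept inactive by chaperones. Misfolded protein, heat or metal ions draw those chaperones away, and Hsf1 then binds heat shock elements, inverted repeats of the unit GAA, in front of chaperone genes. Hspa1a and Hspa1b encode the strictly inducible HSP70 proteins, and Hspa8 the HSP70 that cells make at all times. Dnajb1 and Dnaja1 are HSP40 co-chaperones that deliver substrates to HSP70, and Hsph1 (HSP110) exchanges its nucleotide. Hsp90aa1 is the inducible and Hsp90ab1 the constitutive cytosolic HSP90. Hspd1 and Hspe1 encode the HSP60 and HSP10 partners of the mitochondrial chaperonin, so 8 of the 10 genes are cytosolic and these 2 are not. Paneth cells make very large amounts of secreted protein, which is folded by a separate set of chaperones in the endoplasmic reticulum.

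Libraries held 9888174 to 16896714 counts. The 10 Paneth cell markers together took 31.8% to 55.6% of counts, and Lyz1, the lysozyme of Paneth granules, had 90866 to 160125 CPM, its count scaled to a fixed library total. Defa24 and Itln1, further Paneth products, were also present in every library, at 114809 to 209402 CPM and 22877 to 55102 CPM. Goblet cell markers, 8 genes of the neighbouring secretory lineage, took 0.938% to 1.57% of counts. Markers of stem and cycling cells took 0.144% to 0.340% in GF libraries and 0.314% to 0.588% in the others. The T cell marker Cd3e was at 0 in 14 libraries, the B cell marker Cd79a in 15 and the fibroblast marker Col3a1 in all 21, whereas the antigen presentation gene Cd74 (2.98 to 385 CPM) and the myeloid gene Lyz2 (4.44 to 15.3 CPM) were present in every library, and Ptprc and Vim were at 0 in 2 and 1. Zinc exposure was visible in every treated mouse. The metallothionein gene Mt1, which zinc induces through the metal sensor Mtf1, was at 30.7 to 129 CPM in MQ libraries and at 380 to 1097 CPM in Zn libraries once scaled for composition by TMM factors. Mt2, its neighbour and partner, stood at 4.55 to 52.7 CPM on MQ and 370 to 1039 CPM on Zn, with all Zn libraries above all MQ libraries for both genes. The library labelled SPF Zn replicate 1 stood apart: it held 6228 counts of Xist, the RNA of the inactive X chromosome, against 0 to 34 in the other 20 libraries, and 1 count over 4 Y-linked genes against 278 to 1693. Counts of calls that use it and the largest spreads are given with and without it, as are the SPF fold changes of Hspa8 and Hspa1b.

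Composition differed between contexts, which bears on every comparison with germ-free mice. The Paneth α-defensin genes took 39.4% to 44.5% of counts in GF libraries and 24.2% to 36.4% in the others. TMM factors, which rescale each library to its bulk of unchanged genes, were 0.522 to 0.834 in GF libraries and 0.996 to 1.49 elsewhere. When only library totals were used for scaling, the median of all genes moved to a log2 difference of -0.99 between GF and SPF mice on MQ and of -0.74 between GF and ABX mice on Zn. CPM values below are TMM-scaled unless stated. In bulk libraries, fewer cells of a type and less RNA per cell cannot be told apart.

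The promoter sequences are shown first because Hsf1 recognises them. In the 300 bases before the start of each gene's canonical transcript (GRCm39, GENCODE M39), 6 of the 10 genes held a pair of facing units, GAANNTTC or TTCNNGAA on either strand, a motif also present in 13.6% of the 11972 windows of tested protein-coding genes. Hspa8, Dnajb1, Hsp90aa1 and Hsp90ab1 had none in this window, which says only that these letters are not there. Each stretch below is 30 bases, 5′ to 3′ on the strand of the gene, with the matched element in capitals.
Hspa1a, chr17:35191218-35191247, minus strand: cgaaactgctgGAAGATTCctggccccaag
Hspa1b, chr17:35178300-35178329, minus strand: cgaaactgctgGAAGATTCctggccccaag
Hsph1, chr5:149559816-149559845, minus strand: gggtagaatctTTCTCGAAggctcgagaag
Dnaja1, chr4:40722333-40722362, plus strand: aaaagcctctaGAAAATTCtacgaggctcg
Hspe1, chr1:55127212-55127241, plus strand: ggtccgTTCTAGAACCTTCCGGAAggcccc
Hspd1, chr1:55127212-55127241, minus strand: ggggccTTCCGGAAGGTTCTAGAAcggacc

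The last pair is a single stretch read on both strands. Hspd1 and Hspe1 lie head to head on chromosome 1, and their starts enclose 107 bases that hold overlapping copies of a longer element, 3 GAA units in a row that face alternately with 2 bases between neighbours. Only 50 of the 11972 windows (0.418%) held it, and among the 10 genes only this shared promoter did. The Hspa1a and Hspa1b elements begin 104 bases before each start, that of Dnaja1 124 bases before and that of Hsph1 28 bases before.

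The promoters of Hspa1a and Hspa1b, neighbours on the minus strand of chromosome 17, are near copies: 282 of 300 positions were identical (94.0%), and all but 1 of the last 120. The 120 bases before each start are shown to make the likeness plain, with the element in capitals.
Hspa1a, chr17:35191133-35191252: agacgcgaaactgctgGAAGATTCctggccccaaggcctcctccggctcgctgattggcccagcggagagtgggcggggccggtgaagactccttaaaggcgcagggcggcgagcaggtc
Hspa1b, chr17:35178215-35178334: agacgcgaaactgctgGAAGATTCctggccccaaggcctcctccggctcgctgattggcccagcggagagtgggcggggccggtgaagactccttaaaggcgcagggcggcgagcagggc

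The likeness extends into the transcripts and limits what can be measured. Of all 60-base stretches of the Hspa1a transcript, 42.2% occurred in no other gene's transcript, and 40.4% for Hspa1b, with most of the rest shared between this pair. For Hspa8 the share was 28.6%, with the pseudogene Gm15459 the closest copy, and for Hsp90aa1 47.8%. Hspd1 stood at 59.8%, Hspe1 at 69.9%, Dnaja1 at 82.2% and Hsp90ab1 at 97.6%, while Hsph1 and Dnajb1 were wholly unique. The sources used here do not say how shared reads were counted, so the split between Hspa1a and Hspa1b and the levels of Hspa8 and Hsp90aa1 are uncertain. On GRCm39 the genes lie at chr17:35188166-35191132 (Hspa1a, ENSMUSG00000091971, minus strand), chr17:35175412-35178214 (Hspa1b, ENSMUSG00000090877, minus), chr9:40711630-40731039 (Hspa8, ENSMUSG00000015656, plus), chr5:149537636-149560156 (Hsph1, ENSMUSG00000029657, minus) and chr8:84334811-84339820 (Dnajb1, ENSMUSG00000005483, plus). The others lie at chr4:40722056-40737149 (Dnaja1, ENSMUSG00000028410, plus), chr12:110656842-110669166 (Hsp90aa1, ENSMUSG00000021270, minus), chr17:45878552-45891949 (Hsp90ab1, ENSMUSG00000023944, minus), chr1:55127260-55130476 (Hspe1, ENSMUSG00000073676, plus) and chr1:55116989-55171038 (Hspd1, ENSMUSG00000025980, minus). Hspa1a and Hspa1b consist of 1 exon each. Gm20481, which lies antisense to Hspa1a, had 0 counts in all 21 libraries.

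Per length, the constitutive chaperones dominated. Hsp90ab1 had a median of 238 TPM, its share of transcripts scaled for length, over the 21 libraries, with a range of 85.7 to 472. Hspa8 followed at a median of 111 TPM and was below Hsp90ab1 in 21 of 21 libraries. Hspe1 (90.4 TPM), Hspd1 (59.3 TPM) and Hsp90aa1 (24.6 TPM) came next. Each was below its upper neighbour in 21 of 21 libraries, except that Hspe1 was below Hspa8 in 20. Dnajb1 (9.10 TPM) and Hsph1 (7.31 TPM) changed places between libraries, Dnajb1 being the higher in 11 of 21. Dnaja1 had a median of 5.08 TPM.

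The inducible HSP70 genes were at the floor of detection in much of the series. Hspa1b had a median of 0.391 TPM and 1 to 283 counts per library, and Hspa1a a median of 0.0827 TPM and 0 to 63 counts. Hspa1a was at 0 in ABX Zn replicate 4 and GF Zn replicate 3, where a count of 0 allows up to 0.231 and 0.276 CPM of library total. These limits cover counting error only. Hspb1, a small heat shock protein that Hsf1 also drives, had at most 6 counts in any library.

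The mean TMM-scaled level was highest in ABX Zn mice for 9 of the 10 genes. The exception was Dnajb1, whose mean was highest in GF MQ mice at 35.5 ± 4.54 CPM (SD, n = 3). Scaled by library totals, its mean was highest in ABX MQ mice instead. For Hspa1a, near the floor, the ABX Zn mean was carried by replicate 2 (3.24 CPM), and the median was highest in GF MQ mice (1.18 CPM, against 0.73 CPM in ABX Zn mice). The share of all genes with their highest mean in ABX Zn mice was not computed.

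**Figure D1:**
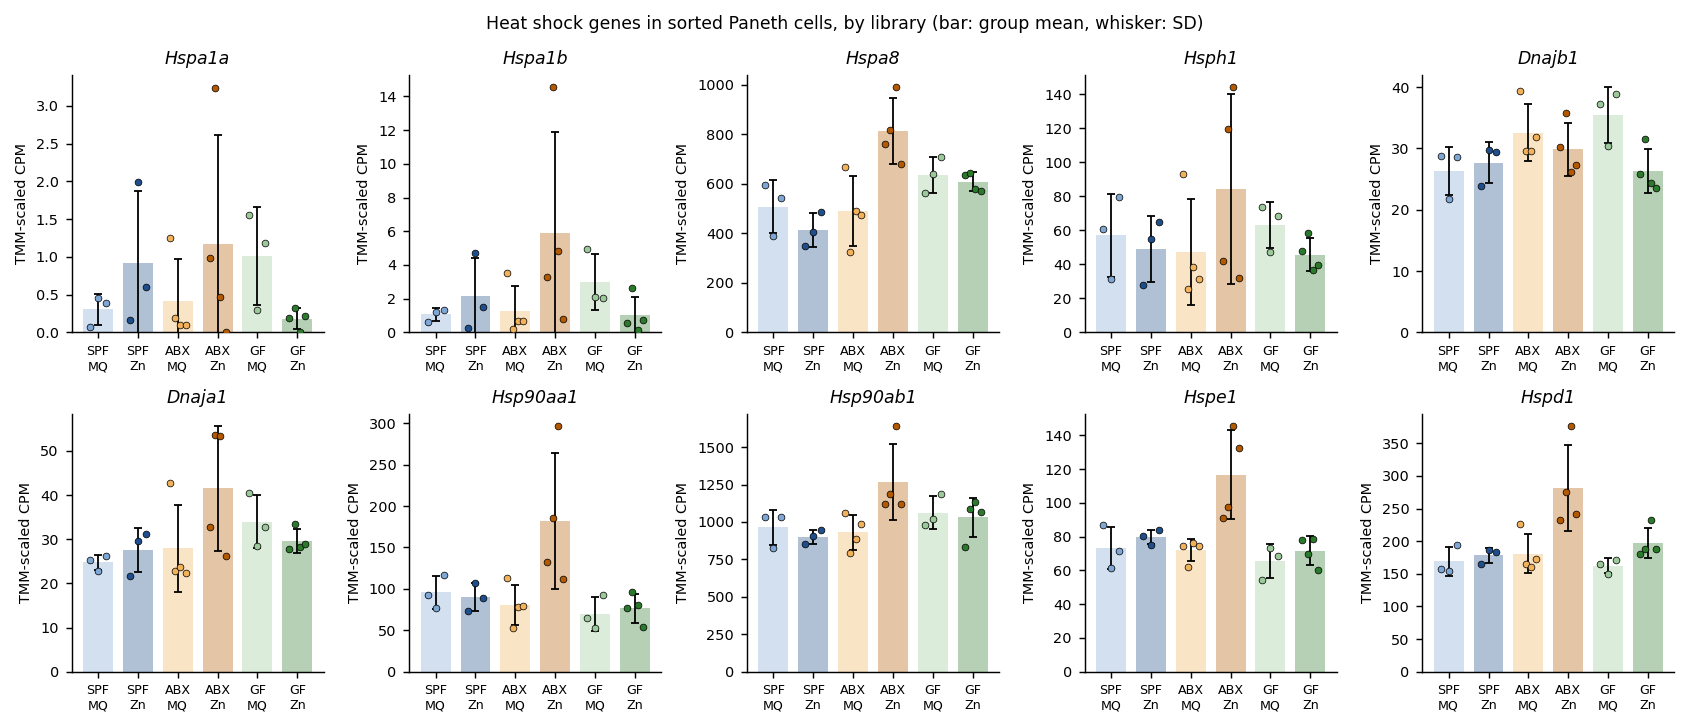
TMM-scaled CPM (linear axes from 0) of the 10 genes in each of 21 libraries, by group: points are libraries, bars group means and whiskers SD (n = 3 or 4). All 4 ABX Zn libraries lie above the ABX MQ libraries for Hspa8 (681 to 992 CPM) and Hspd1 (232 to 376 CPM), although GF MQ replicate 3 reaches 708 CPM for Hspa8, while Hspa1a and Hspa1b scatter within every group.

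In SPF mice none of the 10 genes passed the test for a zinc effect. By edgeR's quasi-likelihood test, 0 of 10 passed an adjusted p of 0.05, where 0.138% of all 13070 genes did. None of the 10 had an unadjusted p under 0.05, where 665 of all genes did, and DESeq2 also called 0 of the 10. The median log2 fold change over the 10 was 0.07, beside -0.02 over all genes tested.

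Hspa8 stood at 594, 388 and 542 CPM in the SPF MQ libraries and at 349, 407 and 484 CPM in the SPF Zn libraries. The ranges overlapped, with Zn replicate 1 the lowest, and the log2 fold change was -0.30 ± 0.20 (SE), or -0.19 without Zn replicate 1. Hspa1b had 9, 24 and 28 counts on MQ and 3, 66 and 20 on Zn. The Zn libraries thus lay on both sides of the MQ libraries, and the log2 fold change of 1.00 ± 0.94 was about the size of its error. It was 1.51 without SPF Zn replicate 1, and the count of genes called was then again 0. Enterocyte markers summed to 0.0351% to 0.0719% of counts in SPF MQ libraries and to 0.0887% to 0.149% in SPF Zn libraries, and their part in these values was not tested.

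After antibiotics, zinc raised 6 of the 10 genes: Hsp90aa1, Hspa8, Hspe1, Hspd1, Hsp90ab1 and Hspa1b. None was lower. Across all genes 21.7% passed the test, 10.2% with a rise and 11.5% with a fall. Scaled by library totals, 2 of the 10 passed, Hsp90aa1 and Hspe1, and 150 genes in all rose while 1295 fell. The median log2 fold change over the 10 genes was 0.71, beside 0.01 over all genes. For Hspa8, Hsp90ab1, Hspe1 and Hspd1 every ABX Zn library lay above every ABX MQ library, which held in that direction for 13.9% of all genes.

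Hspa8, the everyday HSP70, was at 669, 324, 489 and 476 CPM in ABX MQ replicates 1 to 4. In ABX Zn replicates 1 to 4 it was at 762, 817, 992 and 681 CPM. The lowest Zn library was barely above the highest MQ library, replicate 1. The log2 fold change was 0.73 ± 0.18, with an adjusted p of 0.00713 by edgeR.

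Hsp90aa1, the inducible HSP90, showed the largest change among the well-expressed genes. It was at 113, 52.7, 78.1 and 79.4 CPM in the ABX MQ libraries and at 133, 185, 297 and 112 CPM in the ABX Zn libraries. Zn replicate 3 was far above the rest and Zn replicate 4 fell just under MQ replicate 1, so the groups overlapped by that pair. The log2 fold change was 1.17 ± 0.26 (adjusted p = 0.00435, edgeR).

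Hsp90ab1, the constitutive HSP90, moved less. It was at 1058, 794, 886 and 987 CPM on MQ and at 1118, 1188, 1640.0 and 1118 CPM on Zn. The groups did not overlap, and Zn replicate 3 was again highest. The log2 fold change was 0.44 ± 0.14 (adjusted p = 0.0314, edgeR), and the call was lost without ABX MQ replicate 2, ABX MQ replicate 3 or ABX Zn replicate 3.

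Both genes of the mitochondrial chaperonin rose. Hspd1 was at 226, 165, 160.0 and 173 CPM on MQ and at 232, 276, 376 and 242 CPM on Zn, and Hspe1 at 74.5, 62.3, 76.1 and 74.8 CPM on MQ and at 91.0, 97.7, 146 and 133 CPM on Zn. Neither overlapped between the waters, although for Hspd1 MQ replicate 1 came close to Zn replicate 1. The log2 fold changes were 0.64 ± 0.15 for Hspd1 (adjusted p = 0.00528, edgeR) and 0.70 ± 0.15 for Hspe1 (adjusted p = 0.00331, edgeR). Both calls held when any one of the 8 libraries was left out.

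Hspa1b, the inducible HSP70, had 70, 3, 14 and 14 counts in the ABX MQ libraries and 53, 283, 72 and 12 counts in the ABX Zn libraries. Scaled, these were 3.51, 0.20, 0.67 and 0.68 CPM and 3.28, 14.6, 4.85 and 0.78 CPM. The groups overlapped: MQ replicate 1 exceeded Zn replicates 1 and 4, and Zn replicate 2 stood far above the rest. The log2 fold change was 2.20 ± 0.78 (adjusted p = 0.046, edgeR), and 6 of the 8 analyses with a library left out lost the call, as did DESeq2. Without ABX Zn replicate 2 the log2 fold change was 1.21 (adjusted p = 0.288). Its twin Hspa1a had 25, 3, 2 and 2 counts on MQ and 16, 63, 7 and 0 on Zn, and did not pass (adjusted p = 0.224, edgeR).

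Among the co-chaperones none passed. Dnaja1 was at 42.7, 22.9, 23.8 and 22.4 CPM on MQ and at 32.7, 53.6, 53.4 and 26.3 CPM on Zn (log2 fold change 0.57 ± 0.21, adjusted p = 0.054, edgeR). Hsph1 was at 93.3, 25.4, 38.2 and 31.5 CPM on MQ and at 41.7, 119, 144 and 32.1 CPM on Zn (0.84 ± 0.41 on the log2 scale, adjusted p = 0.145). In both genes MQ replicate 1 stood high among its group and Zn replicates 1 and 4 low among theirs. Dnajb1 had a log2 fold change of -0.12 ± 0.14.

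The count of 6 depended on single libraries. Without ABX MQ replicate 1, in which all 10 genes were above their group mean, 9 of 10 genes passed, all but Dnajb1. Without ABX MQ replicate 2, ABX MQ replicate 3 or ABX Zn replicate 3, 4 of 10 passed. The count over all genes moved too, from 2838 to 2318, 1317, 1761 and 2505 in these fits, in that order. The 6 immune markers summed to 0.0311% to 0.0392% of counts in ABX MQ libraries and to 0.000989% to 0.0232% in ABX Zn libraries, without overlap. In ABX MQ libraries Cd74 made up most of that sum, the other 5 markers reaching at most 15.3 CPM each. Mitochondrially encoded genes summed to 1.84% to 2.67% of counts on MQ and 1.88% to 3.75% on Zn, and 17468 to 18072 genes had a count in ABX MQ libraries against 15870 to 16558 in ABX Zn libraries, again without overlap. The part of these differences in the chaperone result was not tested.

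**Figure D2:**
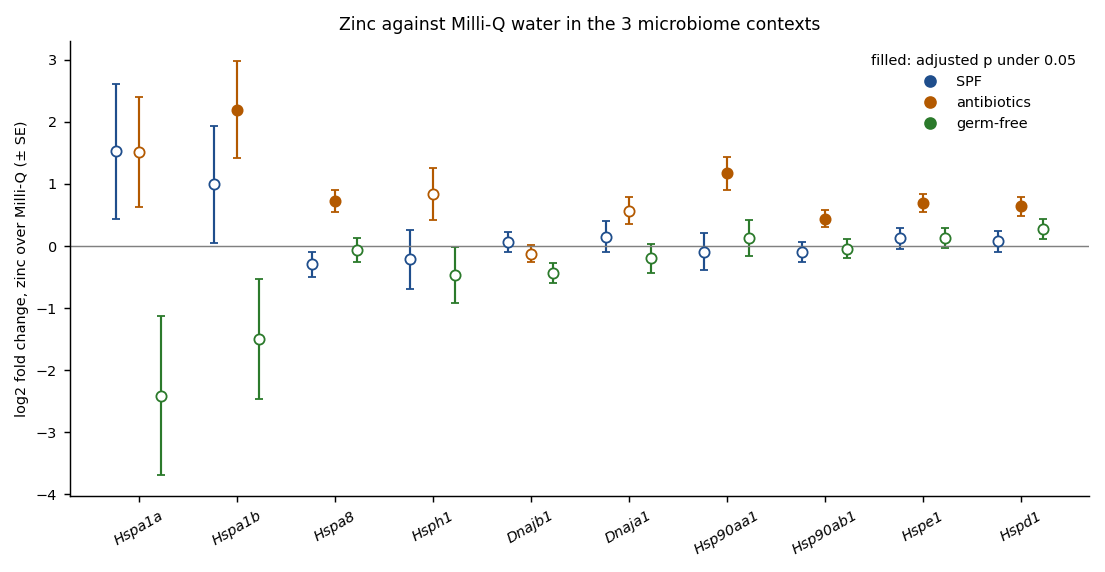
Log2 fold change of Zn over MQ (points) with its standard error (bars) from edgeR for each gene in SPF (blue), ABX (orange) and GF (green) mice. The 6 filled points, those with an adjusted p under 0.05, are all orange and above 0, from 0.44 for Hsp90ab1 to 2.20 for Hspa1b.

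In germ-free mice none of the 10 genes passed the test for a zinc effect (0 of 10 by edgeR, 11.4% of all genes). That share rested on single libraries: the 1485 genes became 5 without GF MQ replicate 2, 196 without GF Zn replicate 3 and 3435 without GF Zn replicate 4, while the count among the 10 was 0 in each. DESeq2 also called 0 of the 10, and 1 of the 10, Dnajb1, had an unadjusted p under 0.05, as did 3764 of all genes. Dnajb1 was at 37.3, 30.3 and 38.9 CPM on MQ and at 25.8, 31.6, 24.3 and 23.6 CPM on Zn. Only Zn replicate 2 overlapped the MQ libraries, and the log2 fold change was -0.43 ± 0.16 (adjusted p = 0.0698). Hspd1 was at 165, 150.1 and 172 CPM on MQ and 180.1, 189, 232 and 188 CPM on Zn. Its groups did not overlap, as was so in that direction for 5.74% of all genes, but it did not pass (0.28 ± 0.16 on the log2 scale, adjusted p = 0.252).

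The inducible HSP70 genes were low in germ-free mice on zinc. Hspa1b had 38, 14 and 19 counts in GF MQ libraries and 3, 24, 1 and 7 in GF Zn libraries, and Hspa1a 12, 2 and 11 against 1, 3, 0 and 2. Replicate 2 of the Zn group exceeded a part of the MQ libraries for both genes. The adjusted p was 0.315 for Hspa1b and 0.215 for Hspa1a.

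Averaged over the 3 contexts, 2 of 10 genes rose with zinc (21.9% of all genes passed, 10.7% with a rise). These were the chaperonin pair, Hspd1 by 0.33 ± 0.09 (adjusted p = 0.0145, edgeR) and Hspe1 by 0.32 ± 0.09 (adjusted p = 0.019, edgeR) on the log2 scale. Both passed whichever of the 21 libraries was left out, SPF Zn replicate 1 included. Neither passed when scaled by library totals alone. Hsp90aa1 had a log2 fold change of 0.40 ± 0.16 (adjusted p = 0.0754).

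A zinc effect that passed after antibiotics and not in the other contexts is not by itself a difference between contexts, so the difference was tested. With edgeR 0 of 10 genes passed for ABX against SPF, where 0 of all 13070 genes did, although 5 of the 10 and 2418 of all genes had an unadjusted p under 0.05. The zinc effect on Hspa8 was larger after antibiotics than in SPF mice by 1.03 ± 0.27 on the log2 scale (adjusted p = 0.114, edgeR). For that gene DESeq2 gave an adjusted p of 0.0209 and limma-voom 0.0282. The corresponding difference for Hsp90aa1 was 1.26 ± 0.39 (adjusted p = 0.126, edgeR) and limma-voom gave 0.0467. Across all genes the count for this difference was 0 by edgeR, 473 by limma-voom on the same 13070 genes, 306 by DESeq2 on 24548 genes, 675 by edgeR without a filter and 249 by edgeR on the ABX and SPF libraries alone. Without SPF Zn replicate 1, 0 of 10 genes passed by edgeR.

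Between GF and ABX mice the zinc effect was smaller in GF mice for all 10 genes, with a median log2 difference of -0.79 beside 0.01 over all genes, and 0 of 10 passed by edgeR and by DESeq2. Unadjusted, 8 of 10 and 2140 of all genes had an edgeR p under 0.05, and 0.207% of all genes passed after adjustment. Between GF and SPF mice 0 of 10 passed by either tool. There 2 of 10 and 1741 of all genes had an unadjusted edgeR p under 0.05, and 0 of all genes passed after adjustment. These contrasts share control libraries with the zinc comparisons above.

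The microbiome contexts were also compared on each water. On MQ, 0 of 10 genes passed for antibiotics by edgeR and DESeq2 (0.199% of all genes by edgeR), with no unadjusted p under 0.05. The nearest was Dnajb1, at 28.8, 21.8 and 28.5 CPM in SPF MQ mice and at 39.4, 29.5, 29.5 and 31.9 CPM in ABX MQ mice. Its groups did not overlap, as held in that direction for 4.45% of all genes (0.31 ± 0.15 on the log2 scale, adjusted p = 0.626).

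On Zn, 4 of 10 genes were higher in ABX than in SPF mice (8.97% of all genes passed, 4.76% with a rise). The SPF Zn libraries were at 349, 407 and 484 CPM for Hspa8, all under the lowest ABX Zn library, 681 CPM, and the log2 difference was 0.98 ± 0.20 (adjusted p = 0.00527, edgeR). Hsp90aa1 was at 73.6, 107 and 89.2 CPM in SPF Zn libraries (1.01 ± 0.28, adjusted p = 0.0305). Hspd1 was at 165, 186 and 183 CPM there (0.66 ± 0.16, adjusted p = 0.0146) and Hspe1 at 80.2, 75.3 and 83.8 CPM (0.55 ± 0.16, adjusted p = 0.0359).

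In these 4 genes and in Hsp90ab1 the SPF Zn and ABX Zn libraries did not overlap, as held in that direction for 14.5% of all genes. With 3 SPF libraries the calls were fragile: without SPF Zn replicate 1, which stood apart above, 1 of 10 passed, and the same count came without replicate 2 or replicate 3. Without ABX Zn replicate 3, 2 of 10 passed. Over all genes 573, 272, 376 and 922 passed in these fits, in that order, against 1172 with all libraries. Hspa8 passed in every one of these.

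Between GF and SPF mice on MQ 0 of 10 genes passed (24.2% of all genes passed), and between GF and ABX mice on MQ 0 of 10 (22.2%), with DESeq2 also at 0 in both. For Hspa1b, Dnajb1 and Dnaja1 every TMM-scaled GF MQ library lay above every SPF MQ library, and for 0 of the 10 all lay below. The share of all genes that did so is not given here. Unadjusted, 1 of the 10 (Dnajb1) and 0 of the 10 had a p under 0.05, where 4852 and 4603 of all genes did. The absence of calls depended on the scaling. With library totals, 6 of 10 were lower in GF than in SPF mice and 7 of 10 lower than in ABX mice, where 70.9% and 78.6% of all genes were lower and their median itself moved to -0.99 and -1.05. Without ABX MQ replicate 1, the TMM-scaled comparison with ABX mice called 1 of the 10 and 2321 of all genes, against 2904 of all genes with it. On Zn, GF and SPF mice differed in 0 of 10 genes by edgeR (5.85% of all genes), and in 0 whichever library was left out. The 764 genes behind that share became 51 without SPF Zn replicate 2, 168 without SPF Zn replicate 3 and 1573 without GF Zn replicate 4. DESeq2 called 1 of the 10, Hspa8 (0.55 ± 0.19 on the log2 scale, adjusted p = 0.0844 by edgeR). Hspa8 also had the only unadjusted edgeR p under 0.05 of the 10, where 3065 of all genes did. Its GF Zn libraries all lay above its SPF Zn libraries, but the share of all genes that did so is not given here either. With library totals Hspa8 did not pass there, and 3 of 10 genes were lower, as were 48.0% of all genes.

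Between GF and ABX mice on Zn, 3 of 10 genes were lower in GF mice (13.2% of all genes passed, 6.09% with a fall). Hsp90aa1 was at 77.3, 95.9, 80.1 and 53.6 CPM in GF Zn libraries, all under the 112 CPM of the lowest ABX Zn library, a log2 difference of -1.24 ± 0.26 (adjusted p = 0.00299, edgeR). Hspe1 was at 77.9, 69.5, 78.8 and 60.3 CPM (-0.71 ± 0.15, adjusted p = 0.00304) and Hspd1 at 180.1, 189, 232 and 188 CPM (-0.51 ± 0.15, adjusted p = 0.0231). For Hspd1, GF Zn replicate 3 lay just under ABX Zn replicate 1, so that the groups nearly met. For these 3 genes and Hspa8 the groups did not overlap, as held in that direction for 7.85% of all genes. Without ABX Zn replicate 4, 5 of 10 genes were lower, and without ABX Zn replicate 3 or GF Zn replicate 1, 2 were. Over all genes 1247, 1179 and 1373 passed in either direction in these fits, in that order, against 1720 with all libraries. The direction was the same with library totals, where all 10 were lower beside 65.3% of all genes.

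**Figure D3:**
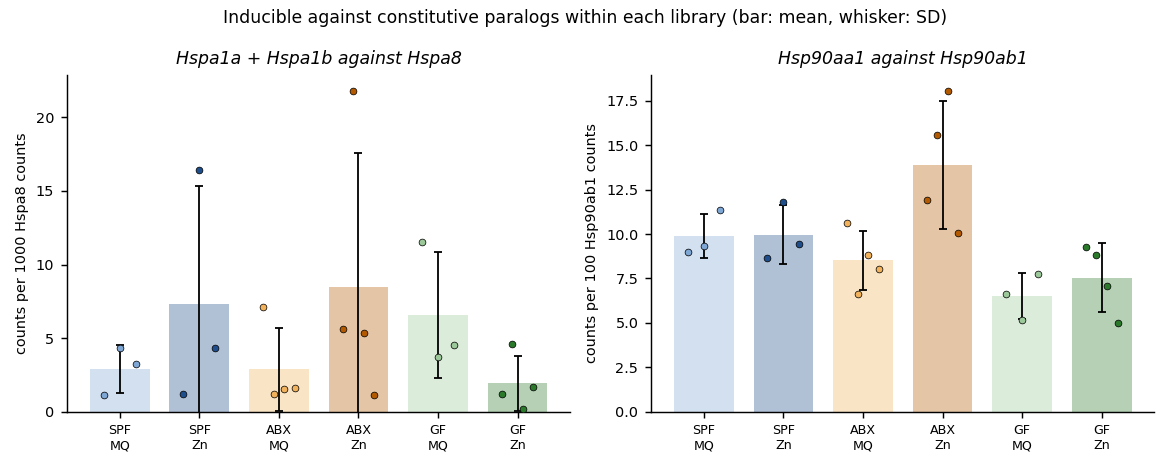
Counts of Hspa1a plus Hspa1b per 1000 Hspa8 counts (left) and of Hsp90aa1 per 100 Hsp90ab1 counts (right) in each library, with group mean (bar) and SD (whisker). The left ratio reaches 21.8 in a single ABX Zn library and is 0.203 in a GF Zn library, while the right ratio lies between 5.01 and 18.1.

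Ratios of the inducible to the constitutive paralog within a library do not depend on the scaling. Counts of Hspa1a and Hspa1b were summed, since reads of this pair cannot be told apart over much of their length. Per 1000 counts of Hspa8, the sum came to 7.11, 1.22, 1.57 and 1.64 in ABX MQ libraries and to 5.61, 21.8, 5.37 and 1.15 in ABX Zn libraries. ABX Zn replicate 4 was the lowest of all 8 and replicate 2 the highest.

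In SPF mice the ratio was 1.15, 4.34 and 3.21 on MQ and 1.17, 16.4 and 4.30 on Zn, again with 1 library far above the others. In GF mice it was 11.5, 3.70 and 4.54 on MQ and 1.22, 4.58, 0.203 and 1.68 on Zn. Every group overlapped its partner on the other water.

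Hsp90aa1 per 100 counts of Hsp90ab1 was steadier. It was 10.6, 6.64, 8.81 and 8.04 in ABX MQ libraries and 11.9, 15.6, 18.1 and 10.05 in ABX Zn libraries, where Zn replicate 4 was below MQ replicate 1. SPF libraries ranged from 8.99 to 11.3 on MQ and from 8.64 to 11.8 on Zn. GF libraries ranged from 5.14 to 7.77 on MQ and from 5.01 to 9.25 on Zn, the latter overlapping the SPF range.

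Replicates spread very unequally across the 10 genes. The standard deviation within groups, on log2 CPM, was 1.37 for Hspa1b and 1.27 for Hspa1a. It was 0.72 for Hsph1, 0.43 for Hsp90aa1, 0.34 for Dnaja1 and 0.27 for Hspa8, and 0.19 to 0.22 for Hspe1, Hspd1, Dnajb1 and Hsp90ab1. The median over all genes tested was 0.28. Without SPF Zn replicate 1 the SD was 1.28 for Hspa1b, 1.24 for Hspa1a and 0.71 for Hsph1.

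Since spread on this scale varies with level, each gene was set beside the 500 genes nearest to it in level. Their median was 0.58 near Hspa1b and 0.79 near Hspa1a. Near Hsph1, a well-counted gene with 248 to 2319 counts, it was 0.19, and 99.8% of those neighbours had a lower SD than Hsph1. The corresponding share was 98.6% for Hspa1b, 98.4% for Hspa1a, 97.6% for Hsp90aa1 and 93.4% for Dnaja1. It was 83.2% for Hspa8, 67.5% for Hspe1, 57.9% for Hspd1, 46.7% for Dnajb1 and 42.5% for Hsp90ab1. Hspa1a, Hspa1b, Hsp90aa1 and Hsph1 were thus among the most variable genes at their level, and Hsp90ab1 and Dnajb1 were ordinary.

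**Figure D4:**
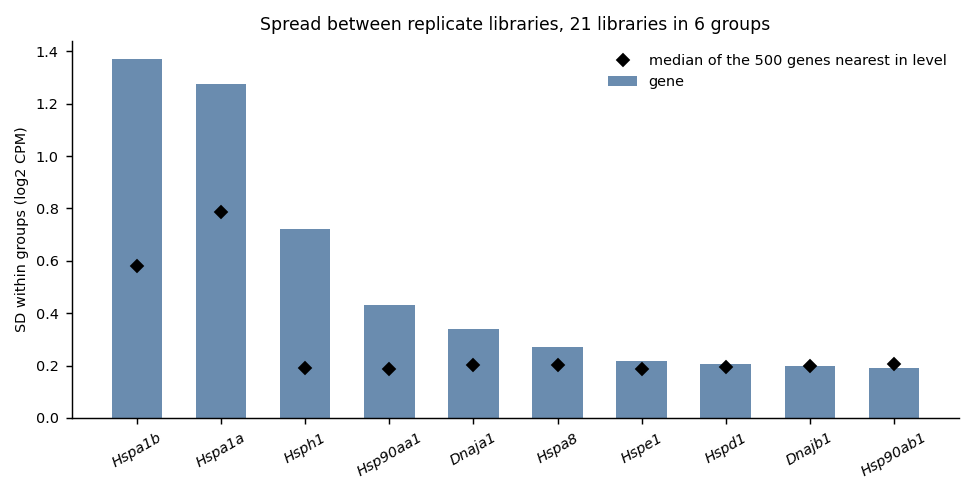
Standard deviation of log2 CPM within the 6 groups for each gene (bars, from 0), beside the median of the 500 genes nearest in mean level (diamonds). Hspa1b (1.37), Hspa1a (1.27) and Hsph1 (0.72) rise far above their diamonds, while Dnajb1 and Hsp90ab1 sit at theirs.

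The spread was shared between genes within a library. Of the 45 pairs of genes, 41 had deviations from the group means that correlated positively over the 21 libraries, with a median Pearson r of 0.58. These points share library and scaling, so the values are descriptions. The share of positive pairs among other genes was not computed. Hsph1 and Dnaja1 were the most alike (r = 0.93), followed by Hspa1a and Hspa1b (0.87), which share reads, and by Hsph1 and Hsp90aa1 (0.84). Hspe1 had a negative r with 4 of the 9 others, -0.57 with Hspa1a at the lowest, and 0.51 with Hspa8, 0.48 with Hsp90ab1 and 0.35 with Hspd1, the gene across its promoter. With each library left out in turn the median r of the 45 pairs was 0.49 to 0.63, lowest without ABX MQ replicate 1, and 40 to 43 pairs were positive.

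Some libraries stood to one side for nearly all genes. How all other genes stood in these libraries was not counted, so the shifts cannot be called particular to the 10. ABX MQ replicate 1 was above its group mean for 10 of 10 genes, with a median deviation of 0.51 on the log2 scale and 1.93 at the most. Of the 21 libraries it also had the highest TMM factor (1.49), the lowest share of Paneth markers (31.8%) and the highest share of immune markers (0.0392%). Their part in the deviations was not tested. ABX MQ replicate 2 was above for 0 of 10. In ABX Zn mice replicate 3 was above for 8 of 10 and replicate 4 for 1 of 10, and in SPF Zn mice replicate 3 was above for 9 and replicate 1 for 1.

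**Figure D5:**
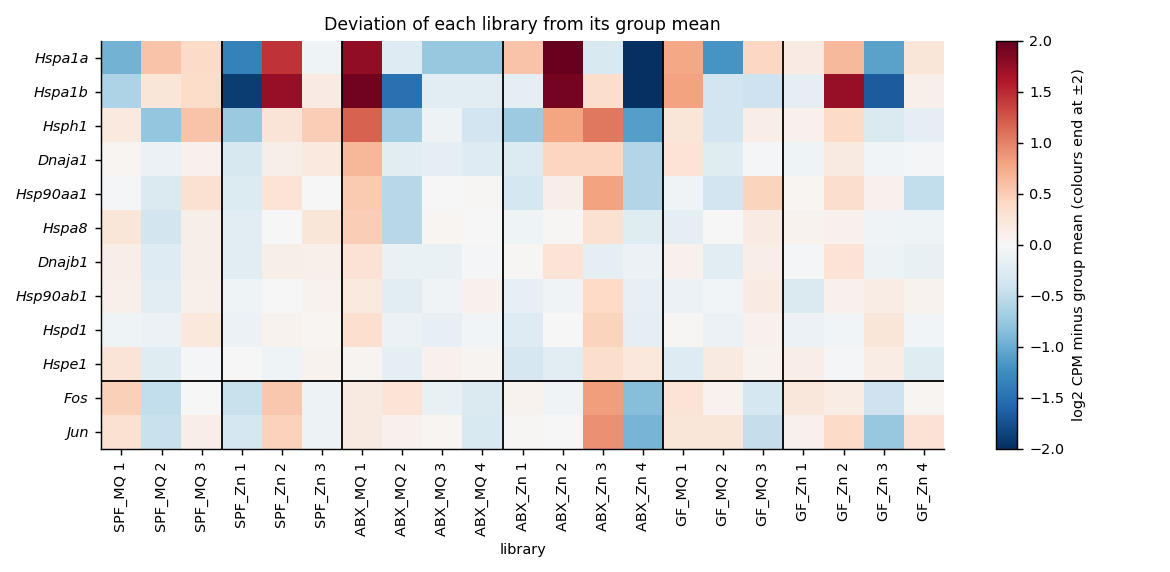
Deviation of log2 CPM from the group mean for the 10 genes and for the immediate early genes Fos and Jun, in 21 libraries (columns) separated by group, on a colour scale that ends at ±2. ABX MQ 1 is red for all 10 chaperone genes and ABX Zn 4 blue for 9 of them.

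Cell handling was approached through Fos and Jun, subunits of the AP-1 transcription factor that tissue dissociation can induce within minutes. Both were abundant in all libraries, Fos at 549 to 6188 counts and Jun at 541 to 7899, in the same libraries in which Hspa1a and Hspa1b together had 1 to 346 counts. Per 1000 Fos counts, the Hspa1a and Hspa1b sum ranged from 1.19 to 88.8.

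Deviations of the chaperone genes from their group means were compared with those of Fos over 21 libraries, in a family of 10 relations with a two-sided permutation test within groups. None passed after adjustment. The closest were Hsph1 (Pearson r = 0.60, permutation p = 0.0302, adjusted p = 0.151; Spearman rho = 0.53, permutation p = 0.0516, adjusted p = 0.261) and Dnaja1 (r = 0.57, permutation p = 0.0301, adjusted p = 0.151; rho = 0.51, permutation p = 0.0522, adjusted p = 0.261). For Hspa1b r was 0.49 (permutation p = 0.074, adjusted p = 0.247) and rho 0.43 (permutation p = 0.0985, adjusted p = 0.328), and for Hspe1 r was 0.06 and rho -0.02.

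Without ABX Zn replicates 3 and 4, which were farthest from the median of Fos, r came to 0.37 for Hsph1, 0.33 for Dnaja1, 0.40 for Hspa1b and 0.06 for Hsp90aa1 (0.44 with them), and to 0.42 for Dnajb1 (0.25 with them). Here the deviations were still those from the means of the full groups, whereas the next values used group means taken anew. Without SPF Zn replicate 1, r was 0.56 for Hsph1 and 0.53 for Dnaja1 (permutation adjusted p = 0.35 for both). All 10 values of r with Fos were above 0, from 0.06 to 0.60, and with Jun in its place that for Hspe1 was -0.01. Jun gave r of 0.61 for Hsph1, 0.57 for Dnaja1 and 0.59 for Hspa1b, each with a permutation adjusted p of 0.0808. With library totals, r with Fos was 0.67 for Hsph1 and 0.64 for Dnaja1 (permutation adjusted p = 0.0609 for both), and rho for Dnaja1 was 0.67 (permutation adjusted p = 0.0536).

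Among 29 immediate early genes tested, 12 fell and 0 rose with zinc averaged over contexts, where 11.2% of all genes fell and 10.7% rose. The 12 included Rhob (-0.55 ± 0.12), Socs3 (-0.80 ± 0.18) and Nr4a1 (-0.87 ± 0.21, all log2). The median log2 fold change of the 29 was -0.44. After antibiotics, where 6 chaperone genes rose, 7 of these 29 fell and 0 rose, where 11.5% of all genes fell.

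Other chaperone systems were followed through fixed lists, counted with TMM scaling only. With library totals the median of all genes for zinc after antibiotics moved to -0.15 on the log2 scale, and 150 genes rose while 1295 fell. The lists were not counted under that scaling. After antibiotics zinc raised 13 and lowered 2 of 36 other heat shock response genes, with a median log2 fold change of 0.29, beside 10.2% of all genes higher and 11.5% lower with a median of 0.01. Among them were the HSP90 co-chaperones Cacybp (0.96 ± 0.16) and Stip1 (0.84 ± 0.16), and Hspa4 (0.60 ± 0.11), a relative of Hsph1. Of 14 subunits of the TRiC chaperonin and its partner prefoldin, which fold actin and tubulin, 9 rose and 0 fell (median 0.43), led by Cct6a (0.72 ± 0.14).

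Endoplasmic reticulum chaperones did likewise, with 10 of 14 higher and 0 lower (median 0.50), led by Sdf2l1 (0.82 ± 0.15). Among 12 other mitochondrial chaperones and proteases 4 were higher and 0 lower, with Grpel1, the nucleotide exchange factor of mitochondrial HSP70, at 0.64 ± 0.14. In SPF mice 0 genes of any of these 4 lists passed, where 0.138% of all genes did. In germ-free mice the 36 heat shock response genes split, with 2 higher and 6 lower (median -0.20), beside 5.89% of all genes higher and 5.47% lower in the fit that rested on single libraries, and the lower ones included Bag1 (-0.75 ± 0.14) and Stub1 (-0.98 ± 0.21), which link chaperones to protein degradation.

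The genes most like the members over the 21 libraries were chosen among 9355 genes with a mean of at least 5 CPM, by Pearson r of log-CPM. For Hspa1b the closest non-members were Hspa5 (r = 0.73), Ubxn4 (0.72), Creld2 (0.71), Calr (0.71) and Hsp90b1 (0.70). For Hspa8 they were Utp6 (0.85), St13 (0.85), Cct7 (0.82), Gtpbp4 (0.82) and Med19 (0.82). For Hsp90ab1 they were Hspa9 (0.86), Dynll2 (0.85), Zmynd19 (0.84), Rrs1 (0.82) and Fkbp4 (0.82). Of all genes compared, Dnaja1 (0.81) and Hsph1 (0.77) were the closest to Hspa1b and Hsp90ab1 (0.85) the closest to Hspa8, although without SPF Zn replicate 1 Utp6 (0.87) was nearer to Hspa8 than Hsp90ab1 was. These values of r moved by at most 0.03 without that library.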

How the data were processed

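Raw read counts for Ensembl genes were deposited by the authors as 1 table covering the 21 libraries (TruSeq stranded mRNA). The submitters' processing notes name FastQC 0.12.0, STAR 2.7.0a, DESeq2 and the build mm39. Which program counted the reads, whether it used strand and what it did with shared reads were not given in the sources used here. Groups came from the labels, and 0 columns were left without a sample. Replicates are described in the series' design text as biological. No 2 replicate libraries agreed within sampling noise (chi-square per gene of at least 8.46 in every pair).

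GENCODE M39 on GRCm39 gave symbols and positions for 54749 of 55414 identifiers, and the 665 others held 0.0164% of counts. Counts were tested with edgeR 4.0.16 (R 4.3.3) by quasi-likelihood F-tests in 1 fit of all libraries with TMM factors and filterByExpr, 2-sided, for 13 comparisons, each adjusted by the Benjamini-Hochberg method over 13070 genes. Log-CPM used a prior count of 2. TPM divided counts by the length of each gene's longest transcript and covered nuclear protein-coding genes. Relations with Fos used 100000 permutations within groups. The edgeR fit was tested on simulated data for the zinc comparison in each context, and the other code was not.

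Alternatives were RLE size factors, library totals, DESeq2 1.42.0, limma-voom 3.58.1 with quality weights, TMM factors computed without Defa genes, no filter, a filter of 10 counts in 10 libraries, a fit of just the compared groups, a replicate block, and each library left out. Descriptions without SPF Zn replicate 1 and the member pairs with each library left out were added after seeing the data. The members, gene lists and tests were chosen with earlier results of these data known. By rule, all 10 members were named, and from each list and comparison at most the 3 genes with the smallest adjusted p among those that passed. Of these, 1 gene that the rule would name is not reported here. Mt1, Mt2, Lyz1, Defa24, Itln1, Xist and the 5 genes most correlated with Hspa1b, Hspa8 and Hsp90ab1 were also named. Hspb1, Gm20481 and the markers of other cells were added after their values were seen. Figures were drawn with matplotlib 3.10.9.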

Additional observations from a re-analysis of the deposited data

Results flagged for a closer look

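Among the 30 sets of 4 libraries (10 genes in ABX MQ, ABX Zn and GF Zn mice), 6 held a library whose gap to its nearest neighbour exceeded the 95% limit of Dixon's test. Chance gives about 1 in 20 such sets, and the genes share libraries. In ABX MQ mice replicate 1 was the high library for Dnaja1 (gap 0.932 of the range), Hspa1a (0.913) and Hspa1b (0.854), and replicate 2 the low library for Hspe1 (0.879). ABX Zn replicate 3 was high for Hsp90ab1 (0.866) and GF Zn replicate 3 for Hspd1 (0.834). The causes of these values were not tested.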

How the results depend on the processing

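Beside the 6 genes called for zinc after antibiotics, the alternatives gave 5 (DESeq2, replicate block) to 7, and 2 with library totals. Over all genes 3212 of 24548 passed by DESeq2, 2707 with the replicate block and 1445 with library totals, against 2838. Where 7 passed, 2846 of 24548 genes did without a filter and 3853 of 13070 by limma-voom. Leaving out 1 library gave 4 to 9 for zinc after antibiotics, 2 to 3 averaged over contexts, 1 to 4 for ABX against SPF on Zn, 2 to 5 for GF against ABX on Zn and 0 to 1 for GF against ABX on MQ, and 0 in the other comparisons. In the order named, 1317 to 2680, 1946 to 4159, 272 to 1059, 1179 to 1796 and 1566 to 2770 of all genes passed in these fits. Library totals gave 0 for the averaged effect, and 6 and 3 for GF against SPF on MQ and Zn and 7 and 10 for GF against ABX, all lower. Under them the log2 fold change turned to -0.52, -0.61 and -0.81 for Dnajb1, Hspa8 and Hsp90ab1 in GF against SPF mice on MQ, and to -0.78, -0.92, -0.68 and -0.86 for Dnaja1, Dnajb1, Hspa8 and Hsp90ab1 in GF against ABX mice on MQ. Without a filter the counts were 1 (zinc in GF, lower), 7 (ABX against SPF on Zn), 2, 1, 1 and 7 (GF against SPF on MQ and Zn and against ABX on MQ and Zn), and 3, 2 and 4 for the differences of the zinc effect (ABX minus SPF, GF minus SPF, GF minus ABX). In that order, 1906, 1491, 3224, 1110, 2894, 1859, 675, 429 and 323 of 24548 genes passed. Limma-voom gave 1 in GF against SPF on either water and against ABX on MQ, 2 and 1 for the ABX minus SPF and GF minus ABX differences, and 6 for ABX against SPF on Zn. In that order, 3851, 2080, 4299, 473, 767 and 2640 of 13070 genes passed. DESeq2 gave 1 for GF against SPF on Zn and 1 for the ABX minus SPF difference, and a fit of only the groups compared gave 1 for GF against SPF on MQ. Here 1223, 306 and 2388 genes passed in all. With Jun in place of Fos, r for Hspe1 was -0.011. No relation with Fos passed without SPF Zn replicate 1 (r of 0.06 to 0.56). RLE factors, TMM without Defa genes and the stricter filter, which left out Hspa1a, changed no count. The cause of these changes was not tested, except that library totals move all genes together. Over all genes, a fit of only the GF libraries called 3 genes for zinc in GF mice, against 1485. Replicate numbers of the sample titles did not pair the libraries. Same-numbered pairs had a median r of 0.02, with 7 of 48 above 0.1. Other pairs had a median r of -0.004, with 26 of 135 above 0.1. For GF MQ libraries the deposited columns number the replicates otherwise than the titles do, so the check covers the title numbers only. With the title numbers as a replicate block the counts were 5, 3 and 3 for zinc after antibiotics, averaged, and ABX against SPF on Zn. In that order, 2707, 2831 and 934 of 13070 genes passed, against 2838, 2860 and 1172 without the block. Depth limits Hspa1a and Hspa1b most.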
